A study of Mus musculus with 32 samples.

Results

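The *Reg* (regenerating islet-derived) genes of the mouse encode a family of small secreted proteins. *Reg1*, *Reg2*, *Reg3a*, *Reg3b*, *Reg3d* and *Reg3g*, 6 of the 22850 genes in the expression table, were taken from the table by gene symbol, with no threshold on a measured value. All 6 were found in the table, under ENSMUSG00000059654 (*Reg1*), ENSMUSG00000023140 (*Reg2*), ENSMUSG00000079516 (*Reg3a*), ENSMUSG00000071356 (*Reg3b*), ENSMUSG00000068341 (*Reg3d*) and ENSMUSG00000030017 (*Reg3g*). The libraries came from 3 cell types, namely β cells, macrophages (MΦs) and endothelial cells (ECs), sorted out of pancreatic islets of adult mice in which VEGF-A was switched on in β cells and then switched off again. The comparison asked for each *Reg* gene was how its level stood before, during and after VEGF-A induction, and how it stood beside the digestive enzymes of acinar cells in the same library.

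Reg proteins are built around a C-type lectin-like domain and are made mainly by acinar cells of the exocrine pancreas and by epithelial cells of the gut. They are known as acute-phase proteins of the pancreas, since their transcripts rise steeply in pancreatitis and after injury, with the IL-6 and IL-22 receptors and the transcription factor STAT3 upstream, and Extl3 has been proposed as a receptor. *Reg1* and *Reg2* are close paralogues that share the name of the family's first subfamily. *Reg3b* encodes pancreatitis-associated protein and *Reg3g* its close relative, both of which act as antimicrobial lectins in the gut, while *Reg3d* encodes a protein related to islet neogenesis associated protein.

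The 6 genes lay next to each other on chromosome 6 of the mm9 build, chr6:78320879-78418866, a stretch of 97988 bases that held no other gene of the table. In order along the chromosome they were *Reg3b* (chr6:78320879-78323460, plus strand), *Reg3d* (chr6:78325868-78328859, minus strand), *Reg3a* (chr6:78330703-78333833, plus), *Reg2* (chr6:78355149-78358091, plus), *Reg1* (chr6:78375974-78378661, plus) and *Reg3g* (chr6:78416263-78418866, minus). The nearest gene outside, *Gm5576*, lay 153589 bases away. Each gene had 6 exons in GENCODE M1, and the coding sequences of 498 to 528 bases encode 165 to 175 residues. Over the 15 pairs, coding identity ran from 60.1% to 82.5%, with *Reg1* and *Reg2* the closest pair at 82.5% and *Reg3b* and *Reg3g* at 76.4%. No stretch of 50 bases was shared between the transcripts of any pair, nor with the transcript of any other gene, and the longest identical run between members was 35 bases. Reads of 50 bases could therefore be told apart between members where they matched without error, although how the authors treated reads with more than 1 match is not given in the sources used here.

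The 250 bases directly upstream of the transcript start are shown for 4 members: the close paralogues *Reg1* and *Reg2*, whose levels parted in several libraries described further on, and *Reg3b* and *Reg3d*, 2 neighbours of the *Reg3* group whose levels parted likewise. Capitals mark matches, on either strand, to TTCNNNGAA (the STAT core), CACCTG (an E-box form bound by the acinar factor complex PTF1), TGGGAA (the site bound by RBPJ and RBPJL) and TATAAA (the TATA box). Sequences run 5′ to 3′ on the strand of the gene and come from the mm9 genome, at chr6:78375724-78375973 (*Reg1*, plus), chr6:78354899-78355148 (*Reg2*, plus), chr6:78320629-78320878 (*Reg3b*, plus) and chr6:78328860-78329109 (*Reg3d*, minus).
Reg1: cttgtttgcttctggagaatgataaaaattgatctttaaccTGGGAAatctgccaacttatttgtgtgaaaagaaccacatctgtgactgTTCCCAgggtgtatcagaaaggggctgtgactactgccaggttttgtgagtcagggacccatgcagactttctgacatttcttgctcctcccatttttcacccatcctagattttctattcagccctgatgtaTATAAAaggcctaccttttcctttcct
Reg2: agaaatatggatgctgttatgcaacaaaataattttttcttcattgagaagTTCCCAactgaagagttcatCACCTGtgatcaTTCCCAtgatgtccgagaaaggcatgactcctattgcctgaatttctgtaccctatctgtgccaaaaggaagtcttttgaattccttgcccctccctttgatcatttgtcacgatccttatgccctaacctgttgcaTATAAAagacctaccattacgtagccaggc
Reg3b: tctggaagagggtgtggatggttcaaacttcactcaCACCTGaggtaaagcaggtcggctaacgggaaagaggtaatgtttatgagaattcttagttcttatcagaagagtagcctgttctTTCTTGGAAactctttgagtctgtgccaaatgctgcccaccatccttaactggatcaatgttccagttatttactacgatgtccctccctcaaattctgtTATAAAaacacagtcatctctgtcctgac
Reg3d: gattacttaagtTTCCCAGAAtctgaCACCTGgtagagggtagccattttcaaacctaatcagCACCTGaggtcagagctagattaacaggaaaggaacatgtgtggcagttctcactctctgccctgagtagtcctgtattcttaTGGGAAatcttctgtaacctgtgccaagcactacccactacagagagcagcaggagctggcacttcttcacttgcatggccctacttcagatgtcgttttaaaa
TATAAA occurred upstream of 4 of the 6 members, TGGGAA of 5, CACCTG of 4 and TTCNNNGAA of 2, against 12.5%, 21.0%, 17.2% and 6.9% of the 22846 windows of this length upstream of all genes matched to the annotation. Between the paralogues, *Reg2* held a CACCTG that *Reg1* lacked, with 2 TGGGAA matches in each (as TTCCCA in the strand shown for some matches). TTCNNNGAA was found 129 bases upstream of *Reg3b* and 238 bases upstream of *Reg3d*, where it overlapped a TGGGAA. These matches describe letters in a window and were not related to the levels by any test.

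The mice were on a C57BL/6 background and all of them, the No Dox controls included, carried the transgenes *MIP-GFP*, *RIP-rtTA* and *TetO-VEGF-A*. The rat insulin promoter (RIP) drives rtTA in β cells, where doxycycline (Dox) in the drinking water turns on human VEGF-A, and the mouse insulin promoter (MIP) drives GFP there. Islets were dispersed without Dox (No Dox), after 1 week of Dox (1wk Dox) or 1 week after Dox was withdrawn (1wk WD), and sorted into GFP-positive β cells without CD31 or CD11b, CD31-positive ECs and CD11b-positive MΦs, with the islets of several mice pooled in a sample. Of the 32 libraries, 12 came from β cells (4 No Dox, 5 1wk Dox, 3 1wk WD), 10 from ECs (4, 1 and 5 in the same order) and 10 from MΦs (4, 2 and 4). Values are normalized scores, a scaled read measure on which 1 is the lowest value and 6456823 the highest. They summed to between 23465985 and 53441769 per library, but the number of reads is unknown, so a score of 1 sets no limit on the true level. Nothing says whether separate libraries of a group came from separate litters or days, and p-values measure the spread between these libraries.

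Libraries of 1 group differed widely in acinar transcripts, measured as the acinar index, the mean of log2(score + 1) over 17 enzyme genes such as *Cela1* and *Cpa1*. In β cells the index was 14.61, 10.59, 18.79 and 18.15 in No Dox replicates 1 to 4, ran from 3.01 to 9.22 under Dox and stood at 14.35, 11.98 and 3.52 in 1wk WD replicates 1 to 3. The β cell markers of the gate summed to between 502570 and 10896496 in β cell libraries, against at most 3313 in ECs and 46016 in MΦs, and EC markers reached 292122 to 462090 in ECs and MΦ markers 221720 to 402731 in MΦs. The stromal marker index (*Col1a1*, *Dcn* and others) also set β cell No Dox replicates 1 and 2 apart, at 5.06 and 4.32 against 13.06 and 14.60 in replicates 3 and 4. It ran from 12.15 to 13.97 in β cells under Dox and from 10.47 to 14.43 after withdrawal. All 8 stromal markers had higher means than at No Dox in both β cell comparisons (median log2 change 3.9 and 3.72, none called by limma, 3 and 0 at an unadjusted p below 0.05), and their part in the *Reg* changes was not tested. EC and MΦ markers moved in β cells too. All 7 EC markers tested had higher means than at No Dox under Dox (median log2 change 2.19, none called, 2 at an unadjusted p below 0.05) and after withdrawal (0.93, none called, 0 at that p). Their summed scores were 1291 to 5542 at No Dox, 1267 to 41430 under Dox and 3404 to 12832 after withdrawal. Of the 7 MΦ markers tested, 3 were higher under Dox (median -0.08) and 7 after withdrawal (1.75, none called, 2 at that p), with sums of 481 to 4143, 986 to 2116 and 3775 to 5491 in the 3 groups. The part of these markers in the *Reg* changes was not tested either. Both libraries of MΦs at 1wk Dox, the EC library at 1wk Dox and 1 of 3 β cell libraries at 1wk WD carried column names of a later number series than the other 28, so for MΦs at 1wk Dox that series and the group cannot be told apart.

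*Reg1* was detected above a score of 1 in 31 of the 32 libraries, *Reg2* in 24, *Reg3b* in 20, *Reg3d* in 18, *Reg3g* in 11 and *Reg3a* in 6. In β cells at No Dox, *Reg1* stood 128th, 4613th, 21st and 13th among all genes of replicates 1 to 4. On a scale per kilobase of transcript, the median score at No Dox in β cells was 200000 for *Reg1*, 29200 for *Reg2*, 4480 for *Reg3d*, 2090 for *Reg3b*, 250 for *Reg3a* and 44.6 for *Reg3g*. *Reg1*, *Reg2*, *Reg3d* and *Reg3b* kept this order per kilobase at No Dox in the other cell types, with EC medians of 3570, 529, 73.5 and 38.9 and MΦ medians of 49600, 10400, 1170 and 462. The libraries of each group spread so widely that neighbours in this order overlapped in score, with *Reg2* above *Reg1* in 1 β cell library. The 6 members together took 0.142%, 0.0051%, 0.609% and 1.13% of the summed scores of β cell No Dox replicates 1 to 4.

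**Figure D1:**
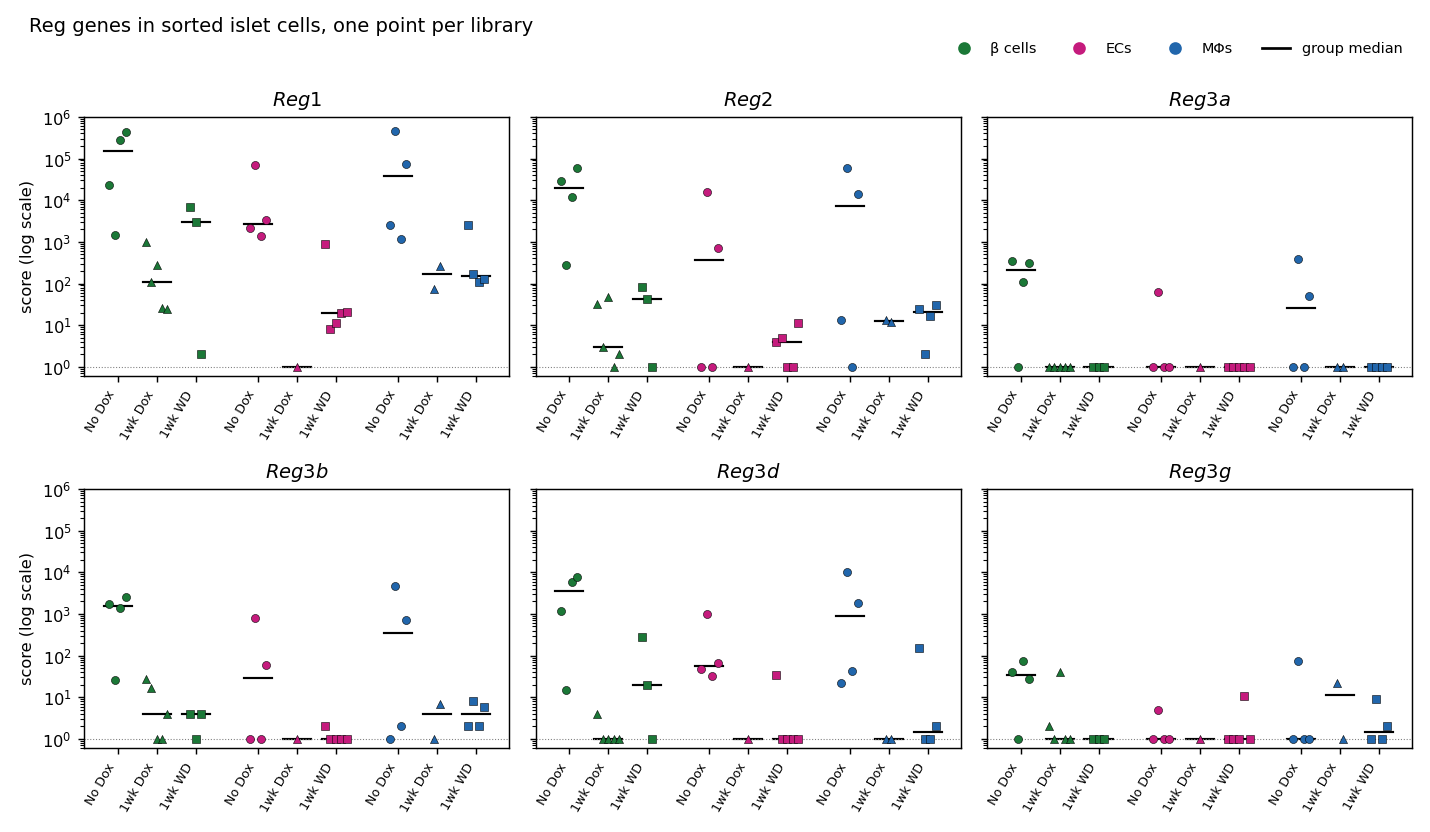
Normalized score of each *Reg* gene (log axis) in every library, by cell type and time point, with 1 point per library and a line at the group median. *Reg1* lies between 1436 and 422709 in the 4 β cell libraries at No Dox, and most points after Dox lie far lower, many at the lowest score of 1.

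In β cells, the first subfamily was abundant at No Dox and low or near the lowest score in most libraries after Dox. *Reg1* scored 23556, 1436, 285050 and 422709 in No Dox replicates 1 to 4. The 5 libraries of 1wk Dox gave 1015, 111, 278, 26 and 24, those of 1wk WD 6772, 2948 and 2. Every 1wk Dox library was below every No Dox library, whereas 2 of the 3 libraries at 1wk WD lay above the lowest No Dox library. *Reg2* scored 28404, 286, 11990 and 60047 at No Dox. Its 1wk Dox scores were 32, 3, 47, 1 and 2 and its 1wk WD scores 82, 42 and 1. Both later groups thus lay wholly below No Dox for *Reg2*.

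The *Reg3* genes scored lower and were likewise highest at No Dox. *Reg3b*, the pancreatitis-associated protein gene, scored 1777, 26, 1402 and 2501 at No Dox. The 1wk Dox libraries gave 28, 17, 1, 1 and 4 and those of 1wk WD 4, 1 and 4. *Reg3d* scored 1175, 15, 5827 and 7577 at No Dox, 4 in replicate 1 and 1 in the other 4 libraries of 1wk Dox, then 277, 20 and 1 after withdrawal. Among these groups, 1wk WD lay wholly below No Dox for *Reg3b* and 1wk Dox for *Reg3d*. *Reg3a* scored 350, 1, 108 and 311 at No Dox and was listed at 1 in all 8 later β cell libraries. *Reg3g*, the least abundant, scored 41, 1, 75 and 28 at No Dox, 2, 1, 41, 1 and 1 with Dox and 1 in every 1wk WD library. No Dox replicate 2, the library with the lowest acinar index of its group, was the lowest No Dox library for all 6 genes.

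In the limma fit of the β cell libraries, none of the 6 genes passed adjusted p = 0.05 with a fold of 2 at 1wk Dox against No Dox, where 0.0122% of 16346 genes passed. A gene was tested if its mean score reached 20 in at least 1 of the 3 groups, and *Reg3a*, *Reg3b* and *Reg3g* did so only at No Dox, so that the lower direction of these 3 was set by the filter in both β cell comparisons with No Dox and the counts of members describe no more than the values. At an unadjusted p below 0.05, 5 of the 6 were lower by a fold of 2 or more, against 4.04% of all genes in either direction. The log2 changes (± SE) were -8.59 ± 2.32 for *Reg1* (adjusted p = 0.4005), -10.05 ± 1.66 for *Reg2* (0.2144), -6.65 ± 1.34 for *Reg3b* (0.2685) and -8.63 ± 1.77 for *Reg3d* (0.2685). *Reg3a* was at -5.13 ± 1.30 (0.3415) and *Reg3g* at -2.38 ± 1.21 (0.7375). The median of the members was -7.62, against 0.03 over all genes tested and -9.03 over the 17 acinar enzymes, none of which passed. Wholly lower groups were seen for *Reg1*, *Reg2* and *Reg3d*, against 1.47% of all genes.

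These calls depended on which control libraries were kept. Without No Dox replicate 2, 4 members passed: *Reg2* (-11.70, adjusted p = 0.0165), *Reg3a* (-6.84, 0.00528), *Reg3b* (-8.18, 0.0165) and *Reg3d* (-10.60, 0.0168), among 26 genes that passed in all (0.159%). With No Dox replicates 1 and 2 both left out the same 4 members passed, among 0.487% of genes, and with replicates 3 and 4 left out only *Reg2* did (-8.44, adjusted p = 0.0264, beside 7.36% of all genes). On each of these subsets the 6 members stayed lower in mean at 1wk Dox.

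At 1wk WD against No Dox in β cells, again no member passed, and 0% of the genes did. All 6 members were lower by a fold of 2 or more at an unadjusted p below 0.05, against 4.45% of all genes in either direction. The log2 change was -6.84 ± 2.64 for *Reg1* (adjusted p = 0.5991), -8.83 ± 1.89 for *Reg2* (0.4621), -7.44 ± 1.53 for *Reg3b* (0.4621) and -5.40 ± 2.02 for *Reg3d* (0.5991). *Reg3a* changed by -5.13 ± 1.48 (0.5387) and *Reg3g* by -3.37 ± 1.38 (0.6008). The members' median was -6.12, against 0.06 for all genes and -5.46 for the acinar enzymes. *Reg2* and *Reg3b* were wholly lower than No Dox, against 3.1% of genes. Without No Dox replicate 2, *Reg3a* (adjusted p = 0.0313) and *Reg3b* (0.0436) passed and were the only 2 genes of the table to do so. Both passed as well with replicates 1 and 2 left out (0.0853% of genes), and no member did with replicates 3 and 4 left out (8.74%). Between 1wk WD and 1wk Dox no member passed, and none had an unadjusted p below 0.05. The background there was 0% of genes called and 2.88% at the unadjusted threshold. Both β cell comparisons with No Dox share the same 4 control libraries.

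**Figure D2:**
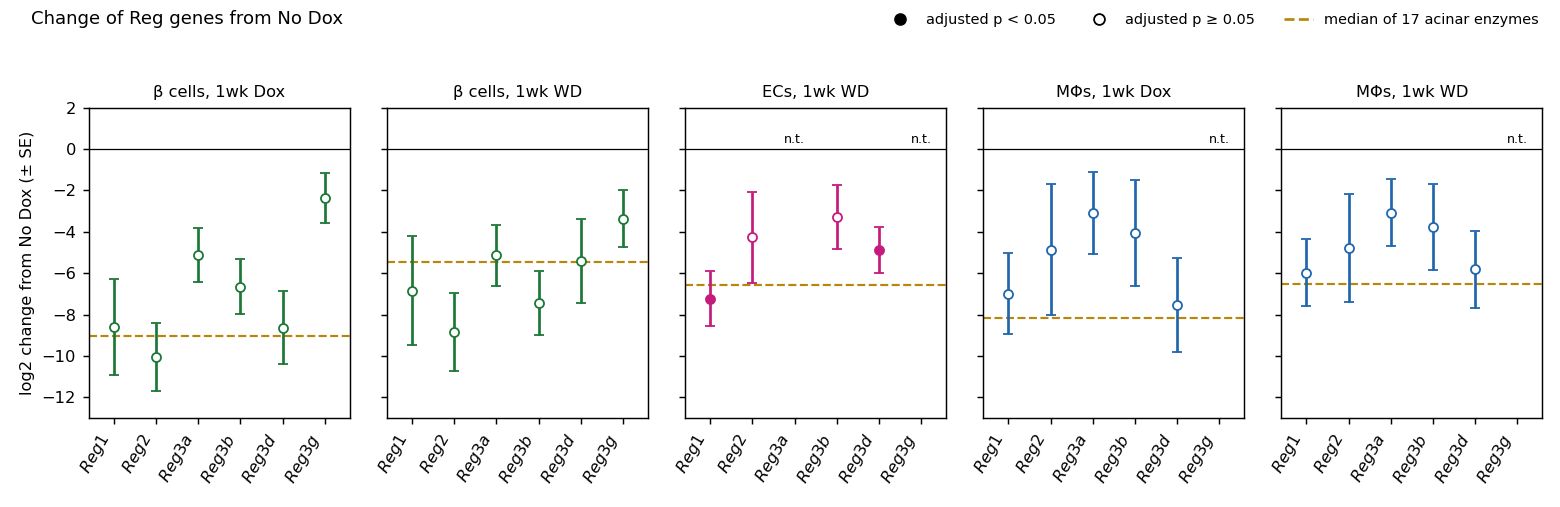
Log2 change from No Dox (limma, points with bars of 1 SE) of each *Reg* gene in the 5 comparisons with No Dox, filled where the adjusted p is below 0.05, with a dashed line at the median of the 17 acinar enzymes (n.t., not tested). All values are negative, β cell *Reg2* is lowest at -10.05, and only *Reg1* and *Reg3d* in ECs are filled.

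In ECs, *Reg1* and *Reg3d* fell between No Dox and 1wk WD. *Reg1* scored 2161, 69952, 1368 and 3364 in No Dox replicates 1 to 4 and 907, 8, 11, 20 and 21 in 1wk WD replicates 1 to 5. All 5 later libraries were below all 4 controls, a separation that 4.91% of the genes tested showed in this direction. The log2 change was -7.24 ± 1.33 (adjusted p = 0.01439), a 151-fold drop. *Reg3d* scored 48, 1023, 33 and 67 at No Dox and 35, 1, 1, 1 and 1 at 1wk WD, with 1wk WD replicate 1 inside the range of the controls. Its log2 change was -4.86 ± 1.11 (adjusted p = 0.03014), or 29.1-fold lower. Of all genes, 1.76% passed in either direction and 0.487% were called lower, and 2 of the 4 members tested were. *Reg2*, *Reg3b* and *Reg3d* reached the mean score of 20 needed for a test only at No Dox, which set their direction. The 7 stromal markers tested also had higher means at 1wk WD in ECs, with a median log2 change of 1.76 and 3 of them called. Of 6 other endocrine genes 5 were lower (median -1.64, 1 called), and of 5 duct markers 4 were lower (median -1.21, none called, 2 at an unadjusted p below 0.05). The part of these markers in the *Reg* changes was not tested.

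The remaining EC values were low. *Reg2* was listed at 1 in No Dox replicates 1 and 3 but scored 15864 and 731 in replicates 2 and 4, and it ran from 1 to 11 at 1wk WD (log2 change -4.27 ± 2.21, adjusted p = 0.2754). *Reg3b* showed the same pattern, at 1 in replicates 1 and 3 and at 802 and 58 in replicates 2 and 4, with at most 2 at 1wk WD (-3.27 ± 1.54, adjusted p = 0.2372). *Reg3a* and *Reg3g* did not reach a group mean of 20 and were not tested, with highest scores of 61 and 11. The single EC library at 1wk Dox had all 6 genes at 1. The *Reg1* call held on leaving out each of the 9 libraries in turn (adjusted p from 0.000796 to 0.0441) and in 8 of 10 other settings, but not with no filter on low scores or no trend of the spread (adjusted p up to 0.142). It was also lost with the acinar index as a covariate, where the log2 change was -1.08. The *Reg3d* call was lost without any 1 of the 4 No Dox libraries (adjusted p = 0.0711, 0.0942, 0.0605 and 0.0663 without replicates 1 to 4) and without 1wk WD replicate 3, 4 or 5 (0.0661, 0.0552 and 0.0593). With the replicate number as a block only *Reg1* passed (-7.08, adjusted p = 0.0296). Of the 17 acinar enzymes, 16 were called lower in the same comparison, with a median of -6.58.

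In MΦs, the No Dox libraries split into a high pair, replicates 2 and 4, and a low pair, replicates 1 and 3. *Reg1* scored 2476, 450853, 1196 and 74152 at No Dox, 73 and 262 with Dox, then 2579, 174, 109 and 129 after withdrawal. *Reg2* scored 13, 59384, 1 and 14357 at No Dox, 13 and 12 with Dox, then 25, 2, 17 and 30 after withdrawal. *Reg3d* scored 22, 10180, 43 and 1789 at No Dox, 1 in both Dox libraries, then 153, 1, 1 and 2 after withdrawal. For each of these genes No Dox replicate 2 was the highest library and replicate 4 the next. *Reg3b* scored 1, 4704, 2 and 699 at No Dox and 1 to 8 afterwards. *Reg3a* scored 390 and 51 in replicates 2 and 4 and 1 in every other MΦ library, and *Reg3g* scored 76 in replicate 2 and at most 22 elsewhere. The highest score in the series for 5 of the 6 genes came from No Dox replicate 2 of the MΦs, the exception being *Reg2*, which was highest in β cell No Dox replicate 4.

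Of the 5 members tested in MΦs, *Reg2*, *Reg3a* and *Reg3b* reached the mean score of 20 only at No Dox. No member passed, against 2.26% of 15014 genes under Dox and 0.626% after withdrawal. At an unadjusted p below 0.05, *Reg1* and *Reg3d* were lower by a fold of 2 or more in both comparisons, against 6.55% and 4.97% of all genes. *Reg1* changed by -6.99 ± 1.96 under Dox (adjusted p = 0.06168) and by -5.97 ± 1.60 after withdrawal (0.08788). *Reg3d* changed by -7.53 ± 2.28 (0.07968) and -5.81 ± 1.86 (0.1357). *Reg2* was at -4.86 ± 3.18 (0.4165) and -4.77 ± 2.60 (0.3704), *Reg3b* at -4.06 ± 2.55 (0.397) and -3.77 ± 2.08 (0.3753), and *Reg3a* at -3.08 ± 1.97 (0.4052) and -3.08 ± 1.61 (0.3507). At 1wk Dox, *Reg1* and *Reg3d* were wholly below No Dox, against 14.7% of genes, and at 1wk WD no member was, against 4.27%. Without No Dox replicate 3, the library with the lowest acinar index of its group, *Reg1* passed under Dox (adjusted p = 0.0238, beside 2.8% of all genes) and after withdrawal (0.0428, beside 0.719%). With library weights, 3 members passed under Dox and 2 after withdrawal, where 4.74% and 1.45% of genes did. The 17 acinar enzymes had median log2 changes of -8.18 under Dox (6 called lower) and -6.52 after withdrawal (none called). Of 7 MΦ markers tested, 1 was called higher under Dox. Stromal, EC, duct, β cell and other endocrine markers moved too, none of them called. β cell markers were higher in 8 of 9 under Dox (median 0.8) and lower in 7 of 9 after withdrawal (-0.63). Other endocrine genes were lower in 4 of 6 and 5 of 6 (medians -0.2 and -1.54). Stromal markers were higher in 6 of 8 under Dox (median log2 change 0.78, 0 at an unadjusted p below 0.05) and in 8 of 8 after withdrawal (0.89, 3 at that p). EC markers were higher in 6 of 7 and 4 of 7 (medians 1.16 and 0.28, 3 and 1 at that p), and duct markers lower in 3 of 7 and 7 of 7 (medians 0.38 and -1.29, 2 each at that p). Their part in the *Reg* changes was not tested. Between 1wk WD and 1wk Dox no member passed or had an unadjusted p below 0.05, where 0.0866% of genes passed and 1.82% met the unadjusted threshold.

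Across the cell types at No Dox, no member differed by the limma test, although 37.7% of genes were called between β cells and ECs, 43.2% between β cells and MΦs and 33.5% between ECs and MΦs. Of the 18 tests of members, only *Reg3g* in β cells against ECs had an unadjusted p below 0.05. At 1wk WD the 3 members tested were likewise not called in any pair, against 39.9%, 46.2% and 40.3% of genes, and none had an unadjusted p below 0.05. Leaving out β cell replicate 2 at No Dox brought *Reg3a* and *Reg3g* past the threshold against ECs (adjusted p = 0.031 and 0.0169, beside 36.8% of all genes called) and *Reg3g* against MΦs (0.045, beside 42.5%). Leaving out MΦ replicate 2 brought *Reg3g* past it in the comparisons of β cells with ECs and MΦs (0.0287 and 0.0211, beside 37.9% and 43.4% of genes). *Reg3g* reached a mean score of 20 at No Dox in β cells alone, so its higher direction there was set by the filter, and MΦ replicate 2 was the only MΦ library of that group with *Reg3g* above 1. Without β cell replicate 3 at 1wk WD, *Reg1*, *Reg2* and *Reg3d* were called higher in β cells than in ECs (0.00223, 0.00425 and 0.0433, beside 40.1% of genes called). *Reg2* reached a mean score of 20 at 1wk WD in β cells alone, which set its direction. β cell replicate 3, whose column name was of the later number series, had the lowest score of its group for all 3 genes. Its acinar index was also the lowest of its group, 3.52 against 14.35 and 11.98, while 4 of the 5 EC libraries lay at 4.47 to 5.24. With the index as a covariate and all libraries kept, the log2 differences were -0.07, 1.00 and 0.02 (adjusted p = 0.932, 0.443 and 0.985). The change from No Dox was also compared between cell types in 1 model over all libraries but the single EC library at 1wk Dox, and none of 24 interaction tests of members passed (limma, smallest adjusted p = 0.328, for *Reg3g* in β cells against ECs). Of these, 1 had an unadjusted p below 0.05. Few genes of any kind passed: 0.437% for β cells against ECs, 0.0472% for β cells against MΦs and 0.289% for ECs against MΦs at 1wk WD, and 0.0413% for β cells against MΦs at 1wk Dox. The absence of calls is therefore no result about the members.

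The acinar enzymes moved with the *Reg* genes over the libraries of a cell type. Over the 12 β cell libraries, *Reg1* correlated with the acinar index at r = 0.983 (Spearman's rho 0.986) with a slope of 0.99, a near equal change on the log2 scale (permutation p = 1e-05 for both, the smallest that the resamples can give, adjusted p = 4e-05 over 12 tests). The r was 0.938 for *Reg3d* (rho 0.957, adjusted p = 4e-05), 0.907 for *Reg2* (rho 0.907, 0.00021), 0.744 for *Reg3a* (rho 0.725, 0.0133), 0.743 for *Reg3b* (rho 0.603, 0.0126) and 0.646 for *Reg3g* (rho 0.606, 0.0283) by the same permutation test. With the mean of each time point subtracted, *Reg1* (0.978, adjusted p = 0.00192), *Reg3d* (0.852, 0.0109) and *Reg2* (0.845, 0.0174) still passed the permutation test, while *Reg3a*, *Reg3b* and *Reg3g* had r of 0.441, 0.463 and 0.509 and did not. The same split was seen without No Dox replicates 3 and 4, the 2 libraries farthest from the median index, where r was 0.968, 0.873 and 0.829 for *Reg1*, *Reg3d* and *Reg2* and 0.489, 0.473 and 0.355 for *Reg3a*, *Reg3b* and *Reg3g*. For these last 3 genes the relation held only with those 2 libraries and the differences between time points both included.

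Over the 10 MΦ libraries, *Reg1* (r = 0.989, permutation adjusted p = 4e-05) and *Reg3d* (r = 0.984, 0.000288) followed the index, and both passed with the time point means subtracted and without No Dox replicates 2 and 4 (r = 0.988 and 0.948). *Reg3a* (0.834, 0.015), *Reg2* (0.805, 0.015) and *Reg3b* (0.774, 0.0188) passed the permutation test over all 10 libraries. Without No Dox replicates 2 and 4, however, *Reg2* was at -0.0342 and *Reg3b* at -0.425, and the rank correlation of *Reg2* over all libraries was 0.407 (permutation p = 0.241). The EC libraries fell into 5 with an index of at most 5.24 and 5 with one of at least 10.91, too few in each for a correlation, and the relation was not tested there. In bulk libraries such as these, fewer cells of a type and less RNA per cell cannot be told apart.

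**Figure D3:**
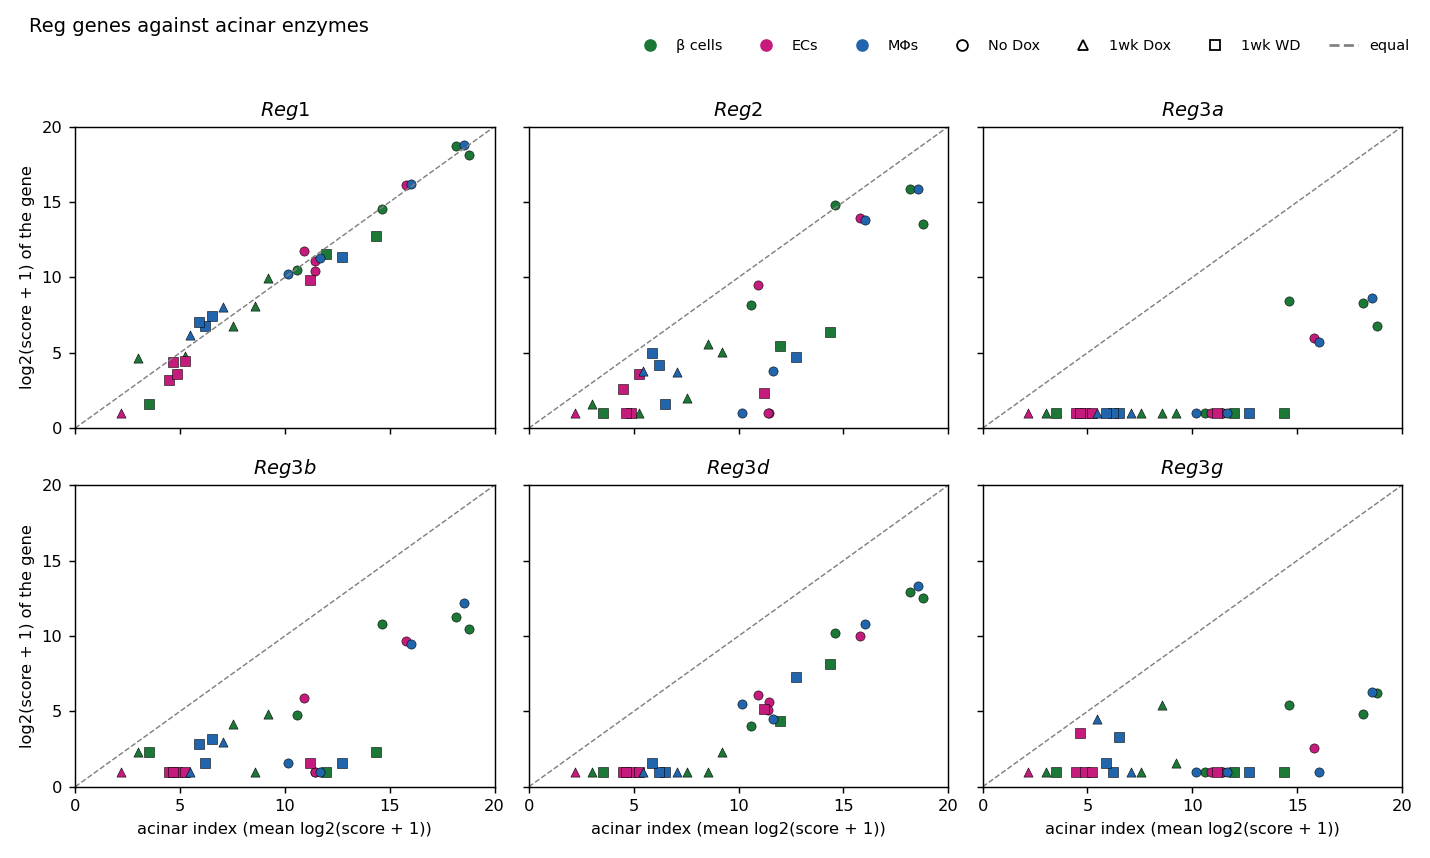
Log2(score + 1) of each *Reg* gene against the acinar index of the same library, with 1 point per library and a symbol for each cell type and time point. *Reg1* runs along the diagonal over an index of 2.18 to 18.79, while *Reg2* lies far below it in several libraries with an index over 10.

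*Reg2* and *Reg3b* departed from the enzymes. Log2(score + 1) minus the acinar index was taken in the 16 libraries with an index of 10 or more, a limit set after the values were seen, since below it most members sit at the lowest score. Over these libraries the 17 enzymes had SDs of 0.15 to 0.81 around the index. The second highest enzyme SD was 0.5, the highest being that of *Ctrc*. *Reg1*, with an SD of 0.72, varied more than 16 of the 17 enzymes, and *Reg3d*, with 0.87, more than all of them. The SD was 1.52 for *Reg3a*, 1.74 for *Reg3g*, 2.53 for *Reg3b* and 3.59 for *Reg2*. For *Reg2* the difference ran from -10.44 to 0.18, and for *Reg1* from -1.63 to 0.81. Scores of 1 set the lowest differences of *Reg2*, *Reg3a* and *Reg3g*, but not those of *Reg1*, *Reg3b* and *Reg3d*. At a score of 1 the difference depends on the index alone, as for *Reg3g* at -15.03 with an index of 16.03. Part of the SDs of members at that score is therefore the spread of the index, not of the gene.

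*Reg2* fell into 2 patterns within the No Dox group itself. In ECs and MΦs, *Reg2* minus the index was -1.83 and -1.39 in EC replicates 2 and 4 and -2.70 and -2.22 in MΦ replicates 2 and 4. In EC and MΦ replicates 1 and 3 it lay between -10.44 and -7.85, although *Reg1* was within 1.00 of the index in the same libraries. The score of *Reg2* relative to *Reg1* was 0.227 and 0.217 in EC replicates 2 and 4 but 0.000463 and 0.000731 in replicates 1 and 3. For the same pairs of MΦ libraries it was 0.132 and 0.194 against 0.00525 and 0.000836. In β cells all 4 No Dox libraries held *Reg2*, at 1.21, 0.199, 0.0421 and 0.142 of *Reg1*. At 1wk WD this ratio was 0.0121 and 0.0142 in β cell replicates 1 and 2.

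Pairs of libraries with nearly the same acinar index were also set side by side. In β cells, No Dox replicate 1 had an index of 14.61 and 1wk WD replicate 1 one of 14.35. *Reg1* was 3.48-fold and *Reg3d* 4.24-fold higher in the No Dox library, but *Reg2* scored 28404 against 82, a 346-fold difference, and *Reg3b* 1777 against 4, or 444-fold. *Reg3a* scored 350 against 1 and *Reg3g* 41 against 1 in the same pair. In ECs, No Dox replicate 4 and 1wk WD replicate 1 had indices of 10.91 and 11.19, and *Reg1* was 3.71-fold, *Reg3d* 1.91-fold, *Reg2* 183-fold (731 against 4) and *Reg3b* 29-fold (58 against 2) higher at No Dox. These are single libraries with no replicate check. Pairs of No Dox libraries with like indices ranged from near equal to as far apart. MΦ replicate 4 and EC replicate 2, with indices of 16.03 and 15.78, had ratios of 1.06 for *Reg1*, 0.905 for *Reg2* and 0.872 for *Reg3b*. MΦ replicate 2 and β cell replicate 3 (18.55 and 18.79) had a ratio of 4.95 for *Reg2* and 3.36 for *Reg3b*, and β cell replicates 4 and 3 (18.15 and 18.79) one of 5.01 for *Reg2*. EC replicates 4 and 1 (10.91 and 11.44) scored 731 against 1 for *Reg2* and 58 against 1 for *Reg3b*, while *Reg1* differed 1.56-fold. A gap in *Reg2* as wide as that between the No Dox and 1wk WD libraries was thus also seen within No Dox, in ECs. The β cell No Dox pair differed 5.01-fold in *Reg2*, less than the 346-fold between the β cell No Dox and 1wk WD libraries.

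**Figure D4:**
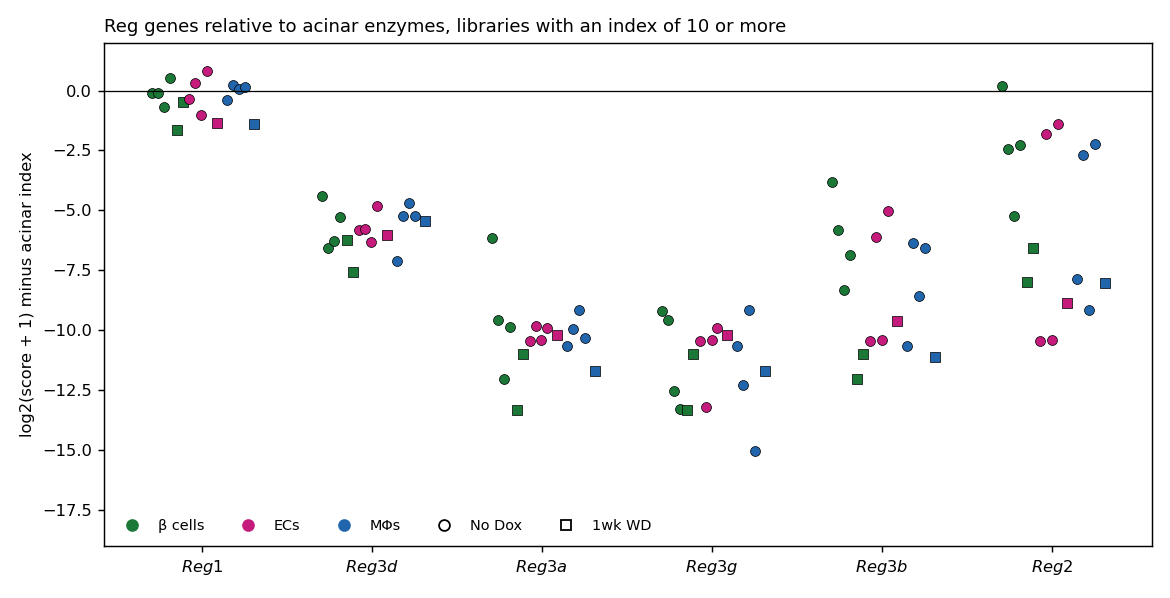
Log2(score + 1) minus the acinar index for each *Reg* gene in the 16 libraries with an index of 10 or more, 1 point per library, by time point and cell type. *Reg1* stays between -1.63 and 0.81, while *Reg2* is spread from -10.44 to 0.18 and its 4 libraries at 1wk WD lie between -8.86 and -6.56.

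With the acinar index as a covariate in the limma fits, *Reg1* was not called in any comparison with No Dox. Its changes lay between -1.29 and 0.19. *Reg2* and *Reg3b* were called lower in β cells at 1wk WD. At an equal index, *Reg2* was lower than at No Dox by a log2 value of -5.43 ± 1.26 (adjusted p = 0.0273) and *Reg3b* by -5.99 ± 1.65 (0.0387), in a fit that called 1.8% of all genes lower. *Reg3b*, like *Reg3a* and *Reg3g*, reached the mean score needed for a test in β cells only at No Dox. Without the covariate, that filter set the lower direction of *Reg3b*. The part of the filter in the *Reg3b* call at an equal index was not tested. *Reg3a* was at -3.84 (adjusted p = 0.144) and *Reg1* at -1.29 ± 0.68 (0.221). At 1wk Dox, *Reg2* was at -4.68 ± 1.42 (adjusted p = 0.0504), *Reg3b* at -4.36 ± 1.86 (0.135) and *Reg1* at 0.19 ± 0.76 (0.889). In ECs at 1wk WD, *Reg1* was at -1.08 and *Reg3d* at -0.18, and neither call was kept (0.00706% of genes passed). In MΦs the values lay between -0.05 for *Reg1* and 3.98 for *Reg2* under Dox and between -0.41 and 2.31 for the same genes after withdrawal, with no call. At 1wk Dox no β cell library had an index above 9.22 and no No Dox library one below 10.59, so there the fit compares groups whose indices do not overlap. The same holds for MΦs, with indices of 5.46 and 7.06 under Dox against 10.17 to 18.55 at No Dox. At 1wk WD the overlap was slight in ECs and MΦs. All libraries but replicate 1 lay at 4.47 to 5.24 in ECs, where No Dox began at 10.91, and at 5.89 to 6.51 in MΦs. β cell 1wk WD replicate 3, at 3.52, also lay below No Dox. Values at an equal index in ECs and MΦs therefore compare groups whose indices barely overlap.

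Other genes of the pathway, chosen with earlier results of these data known, gave no call between time points. *Reg4*, a more distant family member, was listed at 1 in every library but MΦ 1wk Dox replicate 4, where it scored 7. *Extl3*, the proposed receptor, scored from 1959 to 11743 over the libraries and *Stat3* from 5657 to 16200. Of 18 genes of the IL-6, IL-22 and STAT3 axis, 16 could be tested in β cells (15 in ECs, 17 in MΦs), and none was called in any comparison of time points. At 1wk Dox in β cells 9 were higher and 7 lower, with 1 at an unadjusted p below 0.05 (6.99% of all genes), and at 1wk WD 13 were higher and 3 lower, with 3 below that p (8.17%). In ECs at 1wk WD 8 were higher and 7 lower, with 2 at an unadjusted p below 0.05 (21.9% of all genes), and in MΦs 9 and 8 under Dox (3 at that p, against 21.3%), then 13 and 4 after withdrawal (4 at that p, against 17.3%). *Il22ra1*, the IL-22 receptor subunit that acinar cells express, scored 1 to 957 in β cells at No Dox with a median of 273.5, then 1 to 6 under Dox and 1 to 133 after withdrawal. Its log2 change at 1wk Dox was -5.17 ± 1.70 (adjusted p = 0.567). Of 12 acute-phase genes of epithelia, 7 could be tested in β cells (5 in ECs, 9 in MΦs) and none was called against No Dox. Under Dox and after withdrawal, 5 and 4 of the 7 had higher means in β cells and 6 and 7 of the 9 in MΦs. In ECs 2 of the 5 did after withdrawal. At an unadjusted p below 0.05 there were 1 and 2 in β cells under Dox and after withdrawal, 2 in ECs after withdrawal, and 4 and 5 in MΦs, to be read against the same shares of all genes.

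For each member, the genes with the most similar pattern were listed. Over the 12 β cell libraries with time point means subtracted, the 3 genes of 16346 closest to *Reg1* in Pearson's r were *Cela1* (0.990), *Sycn* (0.986) and *Amy2a2* (0.985), an elastase, a zymogen granule protein and an amylase. Those closest to *Reg3d* were *Prss1* (0.991) and *Prss3* (0.980), both trypsinogens, and *Nfe2l3* (0.977). *Reg2* was instead closest to *Socs3* (0.965), a feedback inhibitor of STAT3 signalling that scored 582 to 1969 in β cells at No Dox, then to *Pde12* (0.934) and *Ddi2* (0.928). *Reg3b* was closest to *Tmem139* (0.983), *Nup62cl* (0.920) and *Gm3086* (0.903), *Reg3a* to *Ovgp1* (0.963), *Riiad1* (0.961) and *Zmynd15* (0.931), and *Reg3g* to *Cd14* (0.896), *Tmem82* (0.876) and *Ube2g1* (0.866). *Reg3a* was at 1 in every β cell library of 1wk Dox and 1wk WD, so its r rests on the 4 No Dox libraries alone. *Reg3g* was above 1 in 5 of the 12 libraries, and *Tmem139* scored at most 66 in β cells. Over all 32 libraries and 16968 genes, *Reg1* was closest to *Cela1* (0.989), *Klk1* (0.986) and *Cpa1* (0.983) and *Reg3d* to *Try10* (0.982), *Hamp2* (0.980) and *Spink3* (0.975). *Klk1b3*, a kallikrein gene, came first for *Reg2* (0.902), *Reg3a* (0.950) and *Reg3b* (0.930), and *Acnat1* (0.722) for *Reg3g*. Between members, r over the 32 libraries was 0.933 for *Reg1* and *Reg3d*, 0.929 for *Reg2* and *Reg3b*, 0.930 for *Reg3a* and *Reg3b*, and 0.844 for the paralogues *Reg1* and *Reg2*. These likenesses are descriptions of libraries that share groups and acinar levels, and carry no test.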

How the data were processed

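The authors sorted the cells by flow cytometry, amplified RNA with the NuGEN Ovation system and sequenced 50-base paired-end reads, which were aligned to mm9 with TopHat2 2.0 per the labels and methods. They counted and normalized with TMM in Avadis NGS and deposited 1 normalized score per gene and library, with a lowest value of 1. The annotation version is not given in the sources used here. The table held 6 further columns of samples that are no part of the series, and these were not used.

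Scores were taken as log2(score + 1). Time points were compared within a cell type, and cell types at 1 time point, with limma 3.58.1 in R 4.3.3 (trended spread). Genes with a group mean score of 20 or more were tested, and called at a fold of 2 and a Benjamini-Hochberg adjusted p of 0.05 over all genes tested. Fold changes are on the log2(score + 1) scale, which understates those of low genes. The fit was tested on simulated data. Correlations used 100000 permutations, two-sided, adjusted over 12 tests since the EC relation was not tested. Levels per kilobase used the longest transcript, and sequences came from the mm9 genome with GENCODE M1, where 22799 of 22850 genes matched by identifier and 22438 of them, 5 of the 6 members among these, had the same coordinates (*Reg3g* differed).

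The members, gene lists and tests were chosen with earlier results of these data known. The genes named were all 6 members, *Reg4*, *Extl3*, *Stat3*, *Socs3*, *Il22ra1*, any called gene of the pathway lists, and for each member the 3 genes with the highest correlation. Alternatives were another pseudocount, filter, normalization, spread model or library weights, the replicate number as a block, the acinar index as a covariate, and leaving out each library. Leaving out the β cell No Dox replicates in pairs, and the limit on the index, were added after the data were seen. Same-numbered libraries had deviations correlated between -0.48 and 0.38, so the numbers were not taken to pair the samples.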

Additional observations from a re-analysis of the deposited data

Results flagged for a closer look

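Single libraries stood apart from the rest of their group (Dixon's test within groups of 4 or 5 libraries) in 15 of 39 tests of the members and the acinar index. Chance flags about 1 in 20 groups of independent, continuous values, a rate that does not apply here, since in 7 of the 15 every other library was at the lowest score of 1 and the genes share libraries. In 1wk WD replicate 1 of the ECs the acinar index was 11.19 against 4.47 to 5.24 in the other libraries, with *Reg1* at 907 against 8 to 21, *Reg3d* at 35 against 1 and *Reg3b* at 2 against 1. In 1wk WD replicate 1 of the MΦs the index was 12.72 against 5.89 to 6.51, with *Reg1* at 2579 against 109 to 174 and *Reg3d* at 153 against 1 to 2. In No Dox replicate 2 of the ECs the index was 15.78 against 10.91 to 11.44, with *Reg3a* at 61 and *Reg3g* at 5 where the others were at 1. *Reg3g* was at 76 in MΦ No Dox replicate 2, the library with the highest index of its cell type, 18.55, and at 1 in the others of its group. *Reg3d* was at 4 in β cell 1wk Dox replicate 1, the highest index of that group at 9.22, and at 1 elsewhere.

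The other 3 flags were in libraries without the highest index of their group. *Reg3b* was at 26 in β cell No Dox replicate 2 against 1402 to 2501, where the index was the lowest of the group, 10.59. *Reg3g* was at 41 in β cell 1wk Dox replicate 3 against 1 to 2, where the index of 8.56 was next to the highest, and at 11 in EC 1wk WD replicate 4 against 1. The part of the acinar level in these values was not tested.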

How the results depend on the processing

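Depth is unknown, so the precision of scores near 1 cannot be given. Of 288 counts of members called under an alternative, 255 stayed within 1.5 times the count reported and 33 moved. Of 582 single log2 changes in the 5 comparisons with No Dox, 531 kept direction and side of the threshold, 24 gained and 16 lost the call, 10 took the opposite sign and 1 went to 0.00, these 11 all with the acinar index as a covariate. Of 203 single correlations 181 kept both, 18 lost the call and 4 reversed. The cause of these moves was not tested.

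Leaving out 1 library gave 0 to 4 members called in β cells at 1wk Dox, 0 to 2 at 1wk WD, 1 to 2 in ECs at 1wk WD, and 0 to 1 in MΦs at either later time point. It gave 0 to 2 for β cells against ECs and 0 to 1 against MΦs at No Dox, and 0 to 3 for β cells against ECs at 1wk WD. Members correlated with the index numbered 5 to 6 in β cells and 2 to 5 in MΦs. With β cell No Dox replicates 1 and 2 left out 4 members were called under Dox and 2 after withdrawal, and with replicates 3 and 4 left out 1 and 0. In ECs, where 2 were called, the count was 1 with a pseudocount of 20 or a minimum score of 200, and 0 with no filter, no trend or the covariate. In MΦs at 1wk Dox it was 1 with a minimum score of 200 or quantile normalization and 3 with library weights, and at 1wk WD 2 with weights. With the covariate 2 members were called in β cells at 1wk WD, and 1 each for β cells and ECs against MΦs at 1wk WD, the latter also 1 with no filter. Quantile normalization moved the median of all genes by -0.12 in β cells at 1wk WD against No Dox. The shift was largest between cell types, at -0.38 for β cells against ECs and -0.33 against MΦs at 1wk WD.

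With the replicate number as a block, 1 member (*Reg1*) was called in ECs and 0 in the other comparisons with No Dox. The block changed no other count of calls.

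In the comparisons with No Dox, *Reg3b* in ECs went to 0.00 with the covariate, and values that reversed were *Reg1* in β cells at 1wk Dox (0.19), *Reg2* (0.07) in ECs, *Reg2* (3.98), *Reg3a* (1.22), *Reg3b* (2.05) and *Reg3d* (0.19) in MΦs at 1wk Dox, and the same genes at 1wk WD (2.31, 0.36, 1.11 and 0.36). In the 8 other comparisons, 15 of 38 changes of members took the opposite sign with the covariate, of which *Reg1* in β cells against MΦs at 1wk WD was called (0.47 without and -1.51 with it, adjusted p = 0.0453). Of the 6 members, those correlated with the index numbered 3 in β cells and 2 in MΦs, both with time point means subtracted and without the 2 farthest libraries. In MΦs r turned negative without those 2 for *Reg2* (-0.0342), *Reg3b* (-0.425) and *Reg3g* (-0.55), and for *Reg3g* without No Dox replicate 2, where leaving out 1 library gave -0.529 to 0.455.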

Other observations

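Some libraries with the same replicate number resembled each other across cell types and others did not, and the labels do not say that they came from the same islets. At No Dox, replicate 2 had the highest acinar index in both ECs (15.78) and MΦs (18.55), and *Reg2* scored 15864 and 731 in EC replicates 2 and 4 and 59384 and 14357 in MΦ replicates 2 and 4, against 1 to 13 in replicates 1 and 3 of both. The β cells did not follow this order, with replicate 2 lowest in both the index (10.59) and *Reg2* (286). Replicate 4 had the lowest index of the EC group (10.91) but the next to highest in MΦs (16.03) and β cells (18.15). At 1wk WD, replicate 1 had the highest index in β cells (14.35), ECs (11.19) and MΦs (12.72), and the highest *Reg1* in each (6772, 907 and 2579).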
